A study of Homo sapiens with 2 samples.

Results

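Exonic stacks outside repeats are places in the nuclear genome where small RNA reads recovered with Argonaute proteins pile up on the exon of an annotated gene. They were taken from a deposited list of 502547 read stacks, of which 15943 met the rule, holding 427287 of 68649476 reads (0.622%, interval 0.621 to 0.624). The rule asked for at least 5 reads, fewer than 0.9 edits per read (differences from the reference genome), an exon annotation on the same strand, and no repeat, tRNA, snoRNA, miRNA, vault RNA or Y RNA annotation. The stacks carry the names of 8029 genes, each stack being given to the first gene it lists. The members were thus chosen by their read depth, their edits per read and their annotation, and these values are descriptions without a test.

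The cells were HEK293 T-Rex, a human embryonic kidney line, with FLAG-tagged AGO3 in 1 library and FLAG-tagged AGO2 in the other. Cells of both groups were lysed in NP40, the tagged protein was captured on anti-FLAG magnetic beads, and the RNA was freed with proteinase K and phenol-chloroform before adapters were ligated to both ends. The sequence of the 3′ adapter differs between the AGO3 and AGO2 libraries, so adapter and protein cannot be told apart, and the labels do not give the promoter that drives either tagged protein. The stack list has no column per library, is larger than the reads of both libraries together, and does not say what was pooled, so no stack could be compared between AGO3 and AGO2 and no replicate spread exists. Intervals are exact (Clopper-Pearson) 95% intervals that cover counting error only, except that of the median width, which comes from the ordered widths of the stacks. They treat the reads, stacks or genes counted as separate. Reads may not be so without molecular identifiers, and stacks and genes of 1 pooled list are not replicates. Positions of stacks are in build hg19.

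Argonaute proteins hold short RNAs, above all miRNAs, and use them as guides to find target transcripts. RNA from messenger exons can enter such a preparation in several known forms: short capped RNAs made near transcription starts, hairpins cut from short introns and their borders (mirtrons and related RNAs), target fragments that stay bound, and pieces of abundant transcripts on their way to decay. The deposited list does not tell these forms apart, and which of them a given stack holds was not tested.

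Stacks that carry a transcription start annotation were prominent among the deep members, and the sequences around the starts of several such genes are shown as the RefSeq reference for the annotated starts of those genes. The lines below give, from RefSeq on GRCh38.p14, 50 bases before the annotated start in lower case and the first 20 bases of the transcript in capitals, 5′ to 3′ on the strand of the gene. They are GLUL (chr1:182391771-182391840, minus strand), FLCN (chr17:17237149-17237218, minus strand), SPRY1 (chr4:123396745-123396814, plus strand), KRCC1 (chr2:88055764-88055833, minus strand) and CHST8 (chr19:33621903-33621972, plus strand). These positions were not converted to the build of the stacks, so the first base of a stack cannot be placed on them.
GLUL: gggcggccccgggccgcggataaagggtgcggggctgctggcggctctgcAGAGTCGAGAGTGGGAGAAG
FLCN: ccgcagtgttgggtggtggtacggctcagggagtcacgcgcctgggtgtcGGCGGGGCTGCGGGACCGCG
SPRY1: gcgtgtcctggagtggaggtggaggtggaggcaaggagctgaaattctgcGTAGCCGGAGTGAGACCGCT
KRCC1: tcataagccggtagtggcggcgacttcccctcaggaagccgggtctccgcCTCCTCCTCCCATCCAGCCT
CHST8: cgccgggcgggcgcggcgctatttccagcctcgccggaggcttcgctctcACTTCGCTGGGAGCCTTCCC

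The full windows of 300 bases (250 before the start and 50 after it) were rich in G and C at 4 of these genes. The GC content was 72.7% at GLUL, 67% at FLCN, 67.3% at KRCC1 and 80% at CHST8, against 47.7% at SPRY1. None of the 5 windows holds TATAAA, and the windows of GLUL, FLCN and CHST8 hold GGGCGG, both searched on both strands. In this paragraph a start stack is any of the 1930 stacks with a start annotation, also those counted at splice sites below. The transcription start class used below holds 1791. Over the 1398 genes with a start stack that matched a RefSeq promoter, of 1829, the median GC content was 68% (quartiles 60.7 to 74). It was 66.3% over 4620 genes with other exonic stacks only and 58.3% over all 27305 RefSeq promoters. The median number of CpG dinucleotides per window was 29 in genes with a start stack, 28 in genes with other exonic stacks and 14 over all promoters. GGGCGG was present in 77.2%, 72.8% and 44.6% of the windows of these sets, in the same order, and TATAAA in 7.08%, 4.83% and 11.95%. Promoters of genes with start stacks thus lay close to those of other genes with exonic stacks in base composition, and both sets lay above the genome-wide value. A match of letters is a description and not a site.

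The reads were spread over many shallow stacks and a few deep ones. The median stack held 10 reads (quartiles 6 to 18) and the deepest 31776. Stacks with 50 or more reads numbered 1168 and held 57.9% of the reads, and 71 stacks with 500 or more reads held 27.3%. At the depth threshold, 2724 members had exactly 5 reads, while 4452 otherwise similar stacks had 4 reads and were left out. At the limit on edits, a CCND1 stack of 9 reads with 0.889 edits per read was just inside and a UTP11L stack of 10 reads with 0.9 was just outside. In all, 253 stacks with 95807 reads were at or above that limit. Few stacks lie near it, with 49 members between 0.8 and the limit and 41 non-members from there to 1. Among genes, 4279 (53.3%, 52.2 to 54.4) had a single stack and 80 had 10 or more. The 10 leading genes held 17.8% of the reads (17.65 to 17.88) and the 100 leading genes held 34.9%.

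The leading 15 genes ranged from those whose reads lie wholly or almost wholly in 1 stack to those whose reads are laid out over many. The deepest stack of all, with 31776 reads or 7.44% of the exonic total, spans 24 bases at chr15:89081871-89081894 on the minus strand in a 5′ UTR and names both AC013489.1 and DET1, a component of a ubiquitin ligase complex. The next, with 10766 reads, spans 26 bases at chr3:164059151-164059176 and is named MIR720, a miRNA entry since attributed to a tRNA. Both are narrow, and copies elsewhere in the genome could share their reads; the sources used here do not say how reads with several matches were placed. After these came GLUL, glutamine synthetase, with 8882 reads in 8 stacks, of which 8781 (98.9%) lay in 1 stack of 83 bases at its transcription start (chr1:182360845-182360927). The start of FLCN, the tumour suppressor folliculin, likewise held 2013 of 2024 reads in 64 bases (chr17:17140421-17140484). RNU12, the U12 RNA of the minor spliceosome, had 4678 of 4870 reads in 1 stack of 198 bases (chr22:43011250-43011447). For these genes the gene total is in effect the value of a single stack.

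Other genes also had 1 stack alone. GRIN3B, a subunit of NMDA glutamate receptors, had its 2078 reads on 25 bases at a 3′ splice site (chr19:1003112-1003136). TMEM121 had 1928 reads on 60 bases of 5′ UTR (chr14:105993465-105993524), and BMP8A, a growth factor of the bone morphogenetic protein family, had 1734 reads on 29 bases of 5′ UTR (chr1:39957336-39957364). H2AFX, the histone variant that marks DNA breaks, lay between the extremes, with 8 stacks and 2801 reads, of which 2040 (72.8%) were at chr11:118965400-118965459 and 681 at chr11:118965327-118965381, both in the 3′ UTR. MTRNR2L1, a nuclear copy of a mitochondrial rRNA sequence, had 2240 of 2314 reads at chr17:22023736-22023806, and its reads cannot be told apart from those of the mitochondrial original by position alone. Distinct reads, as far as the field of that kind can be read, numbered 979 in the AC013489.1 stack, 806 in the MIR720 stack and 1921 in the GLUL stack.

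Genes with more than 20 stacks had a lower share in their deepest place, between 10.1% in XIST and 45.3% in MALAT1 for those named here. XIST, the long RNA that silences an X chromosome, had the most stacks, 125 with 2918 reads, and its deepest held 295 reads (chrX:73041480-73041543). KLHL15, an adaptor of a cullin ubiquitin ligase, had 38 stacks with 2272 reads, of which 26 stacks with 1630 reads lay in the 3′ UTR alone and 10 stacks with 555 reads in the coding sequence alone. MALAT1, an abundant nuclear RNA, had 37 stacks with 1147 reads, and 520 of these lay at its poly(A) site (chr11:65273493-65273583). EEF2, the elongation factor that moves the ribosome along the messenger, had 34 stacks with 790 reads, the deepest with 191. ZNF850, a zinc finger gene, had 27 stacks with 1704 reads and a deepest stack of 362 reads.

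**Figure D1:**
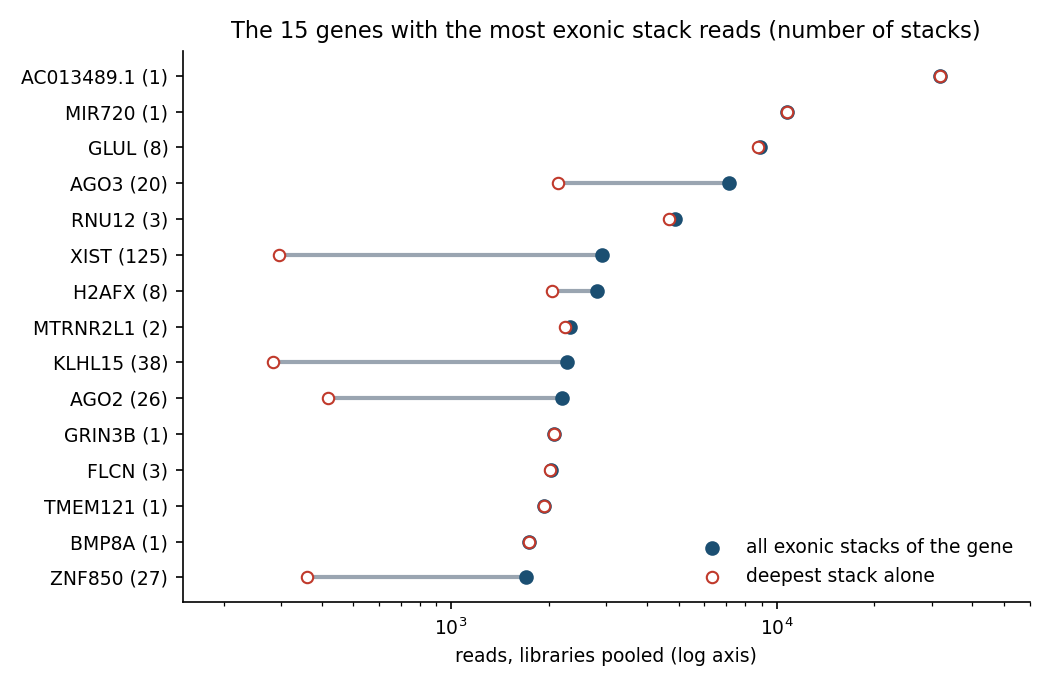
Reads in all exonic stacks of each of the 15 leading genes (filled points) and in the gene's deepest stack alone (open points), on a log axis, with the number of stacks in brackets. The points nearly coincide for genes such as GLUL (8882 and 8781 reads) and lie far apart for XIST (2918 and 295 reads).

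Each stack was put in 1 of 9 classes by its annotation, in the order 3′ splice site, 5′ splice site, transcription start, poly(A) site, and then the part of the transcript. Stacks in 3′ UTR alone were the most numerous, 3737 with 13.5% of the reads, and stacks in 5′ UTR and no other transcript part held 21.3% of the reads in 2144 stacks. Transcription starts held 16.7% of the reads in 1791 stacks, 3′ splice sites 13.0% in 1185, coding sequence alone 9.78% in 2370, poly(A) sites 8.30% in 2159, non-coding exons 7.19% in 844, several coding parts 6.80% in 1273 and 5′ splice sites 3.50% in 440. The 5′ UTR class held more reads than transcription starts (90845 against 71532) only with the stack named AC013489.1; without it the class held 59069. An intron annotation can stand beside any class, and was carried by 4287 members with 38.3% of the reads, the AC013489.1 stack among them. Coding transcripts made up 93.0% of the stacks and 89.5% of the reads. An annotation as a predicted conserved RNA structure (EvoFold) was carried by 474 members, 2.97%, against 1.41% of exonic stacks at any depth. The set at any depth includes the members and has a median width of 23 bases, against 37 for members. No allowance was made for width.

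The make-up of the classes changed with depth. Among exonic stacks of a single read, which are not members, coding sequence alone made up 37.3% and 3′ UTR alone 33.5%, while 3′ splice sites made up 1.81% and transcription starts 2.40%. In stacks of 5 to 9 reads the share of coding sequence alone was 16.9%, that of 3′ splice sites 4.76% and that of starts 10.04%. In stacks of 50 to below 500 reads, coding sequence alone made up 7.57%, 3′ splice sites 22.2% and starts 18.0%. Among the 71 stacks of 500 or more reads the 3 shares were 9.86%, 15.5% and 26.8%. Starts made up a larger share in each deeper group, and 3′ splice sites did so below 500 reads. The intervals for starts in the 2 deepest groups overlap (15.7 to 20.4 and 16.9 to 38.6). The 19 start stacks of 500 or more reads include those of the structured RNAs RNU12, RMRP, RPPH1 and RNU11, so they are not all at starts of coding genes. A coding stack that also carries a splice site, start or poly(A) annotation is counted in that class and not as coding sequence alone. Wider stacks can reach such a site more often, and the median width was 23 bases at any depth and 47 at 50 or more reads. No allowance was made for width in these shares. The class and the depth of a stack come from 1 pooled list, so the shares are a description of that list.

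**Figure D2:**
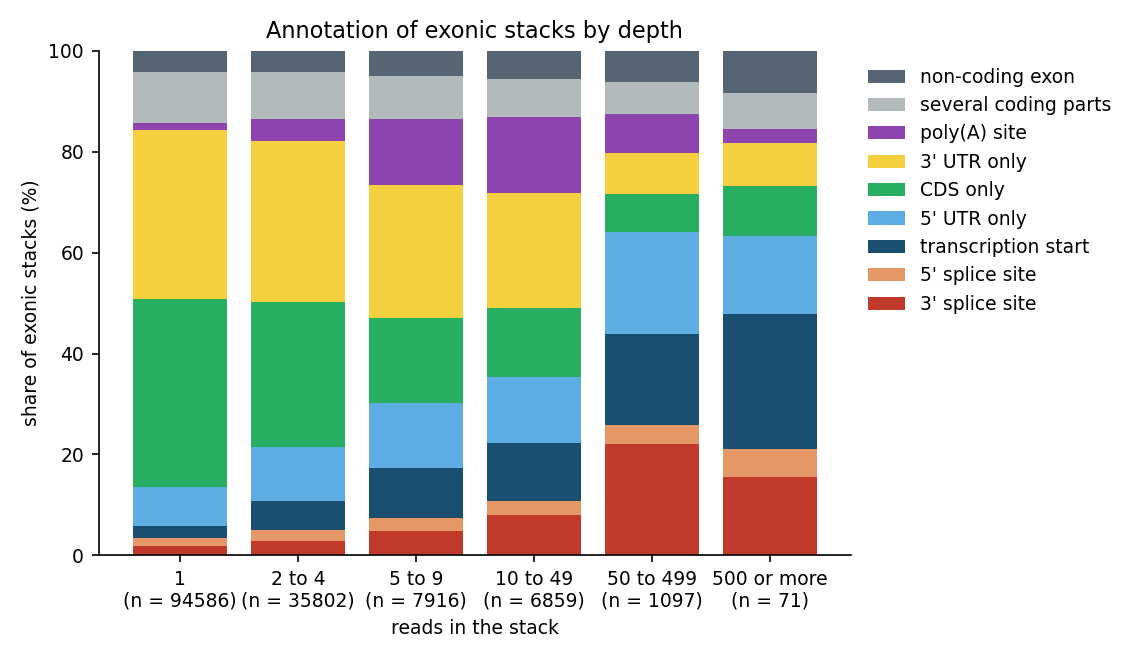
Share of exonic stacks in each annotation class (%), by the number of reads in the stack, with the number of stacks in each depth group; groups under 5 reads are not members. Coding sequence alone (green) takes 37.3% of single-read stacks and 7.57% at 50 to below 500 reads, while 3′ splice sites (red) take 1.81% and 22.2%.

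Stacks at 3′ splice sites, where an intron ends and the next exon begins, were narrow and carried few edits. All 1185 also carry an intron annotation. Their median width was 26 bases (quartiles 23 to 43), against 37 bases over all members (26 to 52), 46 at transcription starts, 51 at 5′ splice sites, 42 at poly(A) sites and 38 in 3′ UTR alone. At 50 reads or more, where edits per read are not set by a handful of reads, the median was 0.0650 edits per read in 254 stacks at 3′ splice sites (quartiles 0.0198 to 0.122) and 0.122 in 914 stacks of the other classes (0.0923 to 0.154). Fewer than 0.05 edits per read were found in 110 of 254 stacks at 3′ splice sites (43.3%, 37.1 to 49.6) and in 52 of 914 others (5.69%, 4.28 to 7.39). Among stacks of at most 30 bases the shares were 75 of 149 (50.3%, 42.0 to 58.6) at 3′ splice sites and 23 of 210 (11.0%, 7.07 to 15.98) elsewhere. The 110 stacks belong to 103 genes and hold 18632 reads. These intervals treat stacks as separate observations, and stacks of the same gene or library pool are not replicates. The cause of the difference was not tested.

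Within the 3′ splice sites, edits per read were lower in narrower stacks. The median was 0.0260 in 19 stacks of 15 to 22 bases, 0.0496 in 130 stacks of 23 to 30 bases, 0.0778 in 50 stacks of 31 to 60 bases and 0.0903 in 55 wider stacks. Among stacks of 23 to 30 bases in other classes the medians ran from 0.0870 in 5 stacks at 5′ splice sites to 0.147 in 19 of coding sequence alone, with 0.120 in 74 of 5′ UTR alone. At 15 to 22 bases some other classes were low too, with 0.0553 in 9 stacks of coding sequence alone and 0.0585 in 4 of 5′ UTR alone, few stacks in each. Of the deepest 3′ splice site stacks, named after their values were seen, several had very few edits. ZNF598, a ubiquitin ligase that senses collided ribosomes, had 648 reads on 29 bases with 0.00309 edits per read (chr16:2050257-2050285). PPP1R12C, a subunit of a myosin phosphatase, had 474 reads on 27 bases with 0.00633 (chr19:55603912-55603938). SLC25A1, the mitochondrial citrate carrier, had 684 reads on 65 bases with 0.00877 (chr22:19165554-19165618), and SARS2, the mitochondrial seryl-tRNA synthetase, had 539 reads on 26 bases with 0.0111 (chr19:39412086-39412111). Others of similar width had edits like those elsewhere. GRIN3B had 0.136 edits per read on 25 bases, and PDIA2, a protein disulphide isomerase, had 0.133 in 626 reads on 26 bases (chr16:335061-335086). Both low and ordinary edit levels thus occur among deep, narrow 3′ splice site stacks.

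**Figure D3:**
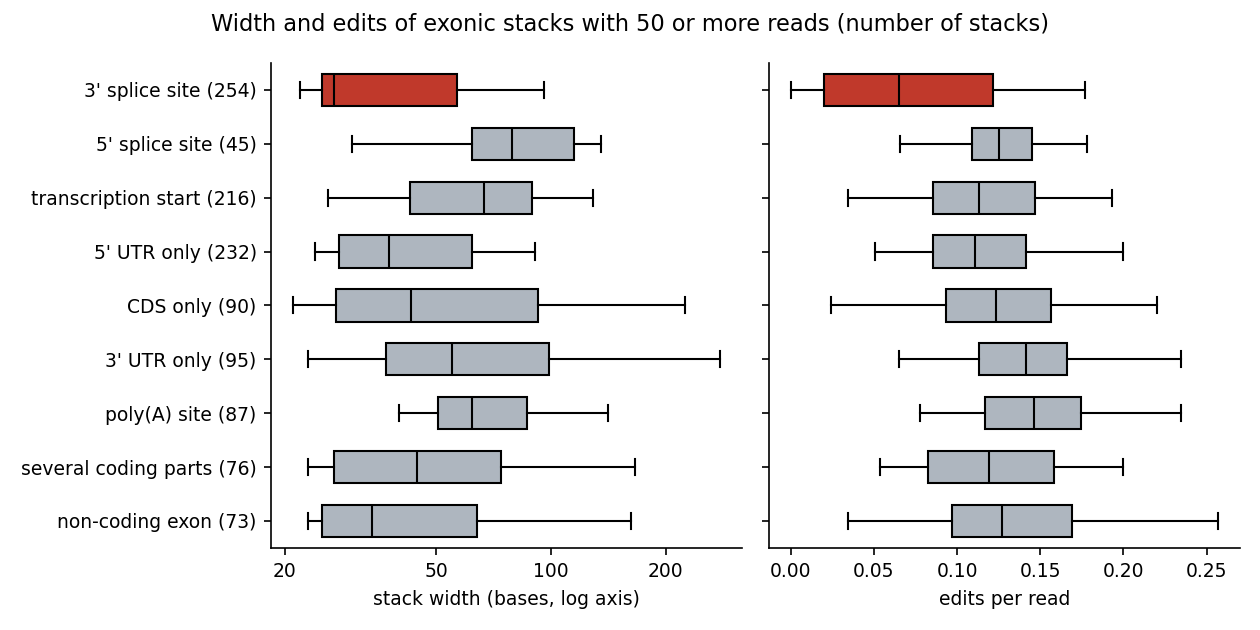
Width in bases (left, log axis) and edits per read (right) of the 1168 exonic stacks with 50 or more reads, by class; boxes give the quartiles, the line the median and the whiskers the percentiles from 5 to 95. Stacks at 3′ splice sites (red, 254 stacks) have the lowest medians of the 9 classes in both panels, 27 bases and 0.0650 edits per read.

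The 3′ splice site stacks lay in 954 genes, of which 171 had 2 or more. GRAMD1A, which encodes a cholesterol transfer protein, had 7 such stacks with 1277 reads, and CKB, the brain form of creatine kinase, had 5 with 1185 reads. EEF2 had 5 with 299 reads and XIST 6 with 251. AGO3 had 8 with 1358 reads and AGO2 4 with 817. These were wide for the class, at 96 to 202 bases in AGO3 and 45 to 216 in AGO2, against a median of 26. Chromosome 19 held 19.4% (16.7 to 22.4) of the 768 stacks of at most 30 bases at 3′ splice sites and 7.43% (7.01 to 7.86) of the 14758 members in other classes. The share on chromosome 16 was 8.33% (6.48 to 10.5) of the narrow 3′ splice site stacks and 4.70% (4.36 to 5.05) of the other classes, and on chromosome 1 the shares were 10.9% and 11.5%. The wider 3′ splice site stacks were alike in this, with 20.6% (16.8 to 24.8) on chromosome 19. Of the genes with a 3′ splice site stack that matched RefSeq, 84 of 929 (9.04%, 7.28 to 11.1) hold an annotated miRNA hairpin, against 370 of 6417 (5.77%, 5.21 to 6.36) of genes with exonic stacks but none at a 3′ splice site. The builds of the hairpins and the stacks differ, so whether a stack lies on a hairpin was not determined.

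At 5′ splice sites, where an exon ends and the intron begins, the deepest stack was on exon 8 of AGO3, with 1627 reads on 151 bases. Exon 16 of AGO3, which is a tagged gene, had 1260 reads on 135 bases. The deepest stacks also included DROSHA, the nuclear enzyme that cuts miRNA precursors from their transcripts. It held 1464 reads on 66 bases at exon 6 (chr5:31515529-31515594) with 0.152 edits per read. This stack made up nearly all of the 1480 reads of the gene. ZNF503, a zinc finger repressor, had 793 reads on 63 bases in exon 1 (chr10:77161460-77161522). The ZNF503 stack is also listed among the stacks at transcription starts, and the order of the classes places it here.

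Deep stacks at transcription starts, again named after their values were seen, were mostly similar in width to those of GLUL and FLCN. SPRY1, an inhibitor of growth factor signalling, had 1132 reads on 74 bases (chr4:124317963-124318036), KRCC1 916 reads on 78 bases (chr2:88355214-88355291) and LIFR, a receptor subunit for leukaemia inhibitory factor, 743 reads on 84 bases (chr5:38556692-38556775). UNC5A, a netrin receptor, had 771 reads on 69 bases (chr5:176237509-176237577). SIM2, a developmental transcription factor, had 1265 reads on 85 bases (chr21:38071419-38071503). All of these are several times wider than the stack at the start of CHST8, a sulphotransferase, which spans 25 bases and held 807 reads (chr19:34112859-34112883). Over all 216 start stacks with 50 or more reads, the median width was 66.5 bases, and 21 of them (9.72%, 6.12 to 14.5) were at most 30 bases wide, against 149 of 254 (58.7%, 52.3 to 64.8) at 3′ splice sites. In coding sequence alone the deepest stacks were those of ZFYVE20, an endosomal protein, with 1687 reads on 27 bases (chr3:15124087-15124113), and VPS13D, a lipid transfer protein, with 1597 reads on 21 bases (chr1:12364713-12364733). The VPS13D stack had only 86 distinct reads.

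The Argonaute genes were themselves among the members. AGO3 had 20 stacks with 7142 reads (1.67% of the exonic total) and AGO2 had 26 stacks with 2185 reads (0.511%). Both are the proteins that carry the FLAG tag, and the reads of the libraries are pooled. AGO1 had 2 stacks with 12 reads, both in the 3′ UTR of its last exon, and AGO4 had no member stack and 14 single reads. Stacks lay on exons 2 to 19 of AGO3 and on exons 2 to 19 of AGO2, 18 exons in each. Stacks with a coding annotation held 100% of the AGO3 reads and 99.6% of the AGO2 reads (2176). The 3′ UTR alone held none in AGO3 and 1 stack of 9 reads in AGO2. Over all other coding genes, stacks with a coding annotation held 37.0% of the reads. Among 75 coding genes with 10 or more stacks the median was 36.5%, and 11 of these genes, AGO3 and AGO2 included, were at 90% or more. ZNF850, MAP3K14, IRS4 and THADA, which are not the tagged genes, were at 100%. The exons covered in those genes were not set beside those of AGO3 and AGO2. The cause of the coding share of AGO3 and AGO2 was not tested.

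Along AGO3, 3 exons stood above the rest. Exon 2 held 2124 reads (chr1:36411294-36411459), exon 8 held 1627 (chr1:36474498-36474648) and exon 16 held 1260 (chr1:36505910-36506044), while the other 15 exons held 35 to 269 each. In AGO2 the highest was exon 18 with 420 reads (chr8:141542519-141542734), and the other exons held 10 to 197 each. The median width of the stacks was 123.5 bases in AGO3 and 92.5 bases in AGO2, against 37 over all members. On the opposite strand, AGO3 had 3 stacks of 5 or more reads with 44 reads and AGO2 had 2 with 12 reads. The sense stacks of both genes were thus wide relative to all members and held far more reads than the opposite strand. The widths of stacks on the opposite strand were not compared. Of the reads, 4569 in AGO3 (64.0%, 14 stacks) and 1427 in AGO2 (65.3%, 11 stacks) lay in stacks that carry an intron annotation as well. Without such stacks AGO3 kept 2573 reads and AGO2 kept 758. Since the libraries are pooled, how the AGO3 and AGO2 transcripts are divided between the AGO3 and AGO2 libraries was not measured.

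**Figure D4:**
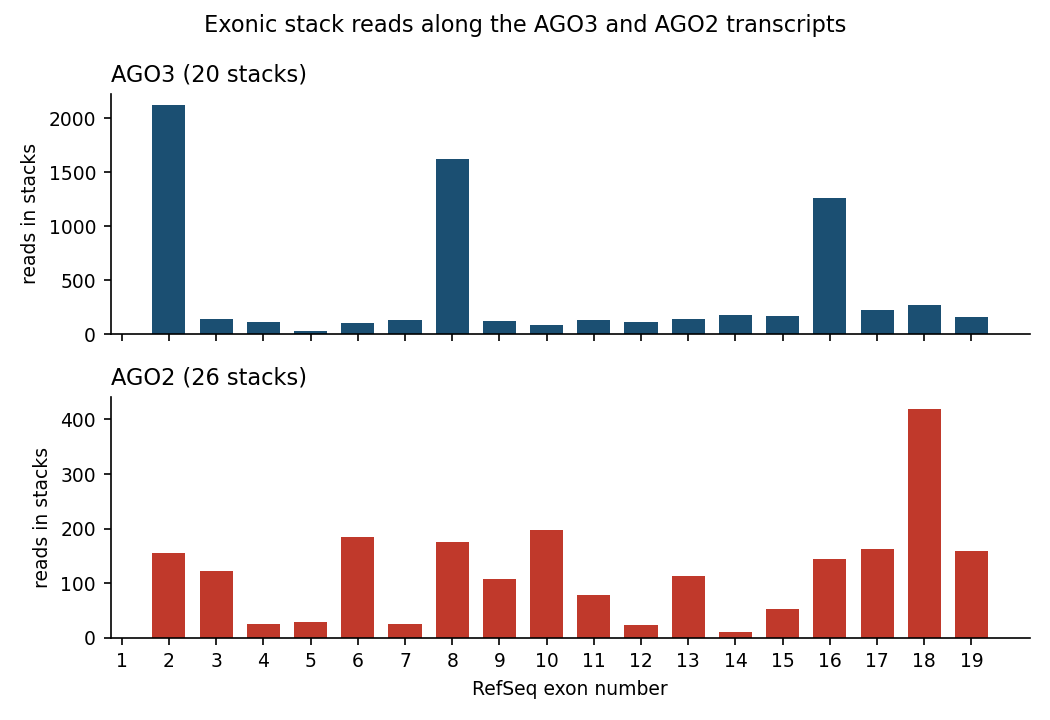
Reads in exonic stacks by RefSeq exon number of AGO3 (top, 20 stacks) and AGO2 (bottom, 26 stacks); the vertical axes differ. Exons 2, 8 and 16 of AGO3 held 2124, 1627 and 1260 reads, and the highest exon of AGO2, exon 18, held 420.

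The other genes of the small RNA pathway had far fewer reads than AGO3, AGO2 and DROSHA, with a median over the whole list of 23 reads per gene against 18 over all genes with a member. Of 15 genes of that list with an exonic stack at any depth, 13 had a member stack, against 8029 of 15976 (50.3%) of all genes. The list counts every gene a stack names, while the values over all genes give each stack to its first gene only. TNRC6B, a scaffold that binds Argonaute and recruits decay enzymes, had 102 reads in 6 stacks. DICER1, which cuts miRNA hairpins to length, had 70 reads in 5 stacks. PRKRA, a partner of Dicer, had 70 reads in 1 stack, DGCR8, the partner of Drosha, 23 reads in 2, and XPO5, the exporter of hairpins, 14 reads in 2. Away from AGO3, AGO2 and DROSHA, no gene of the list passed 102 reads.

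Counts of genes with a member stack are given out of the genes of a list with an exonic stack at any depth. They stand beside 50.3% over all genes, which is not counted quite alike. Lists count every gene a stack names, while the share and the median over all genes give each stack to its first gene only. EIF2B5, for example, has 211 reads in its list and 105 as first gene. Ribosomal protein genes had member stacks in 75 of 78 (96.2%), with 256 stacks and 6762 reads (1.58% of the total) and a median of 59 reads per gene, against 18 over all genes with a member stack. RPL13A had 603 of its 630 reads at 1 3′ splice site stack of 65 bases (chr19:49993668-49993732) that also names the copy RPL13AP5, so its reads may be shared. RPS16 had 423 reads and RPL5 384. Translation factors had member stacks in 43 of 63 genes (68.3%), with 3556 reads, led by EEF2 and followed by EEF1E1 with 551 reads, 523 of them in a stack that also names SCARNA27, and EIF2B5 with 211. Glycolytic enzymes had 12 of 17 (70.6%, 958 reads; ENO1 406, GAPDH 116, PKM 107), cytoskeletal genes 20 of 25 (80%, 1656 reads; TUBA1B 261, ACTG1 225, MYH9 161) and chaperones 42 of 72 (58.3%, near the share of all genes, 1853 reads; HSPA8 413, TCP1 137, CCT6A 87). Respiratory chain genes had 77 of 101 (76.2%), but a median of 16 reads per gene. All of these lists were drawn up with earlier results of these data known.

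Histone genes had member stacks in 54 of 62 (87.1%, against 50.3% of all genes), with 149 stacks and 8282 reads (1.94%), and H2AFX alone gave 2801. HIST1H3B had 424 reads, 311 of them on 221 bases at its poly(A) site (chr6:26031781-26032001), and HIST1H2BJ had 418. By class, 33 histone stacks in 3′ UTR alone held 3433 reads, of which 2746 were of H2AFX and 687 of other histone genes. The 14 stacks at poly(A) sites held 1223 reads, 8 at 5′ splice sites 1079, 14 on several coding parts 1022, 31 at transcription starts 821 and 44 in coding sequence alone 665. Histone genes occur as near-identical copies, so the share of each copy is uncertain.

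Transcripts that host other small RNAs differed from each other in coverage, again beside 50.3% of all genes. Hosts of small nucleolar RNAs had member stacks in 21 of 22 genes (95.5%) with 2166 reads, led by SNHG4 with 575, SNHG10 with 504 and GNB2L1 with 239. The 513 reads of the deepest SNHG4 stack also carry the names of MATR3 and a snoRNA, SNORA74. Hosts of miRNAs had 7 of 19 (36.8%, below the share of all genes) with 336 reads, led by MIRLET7BHG with 118, SMC4 with 69 and MCM7 with 64. Both host lists are small, and no interval of these shares was computed. The rule also left out stacks with a snoRNA or miRNA annotation, so such stacks inside the hosts are not counted. Nuclear long non-coding RNAs of the list had 7 of 9 (77.8%), MALAT1 ahead of NEAT1 with 189 reads and LINC00657 with 97. XIST, with 2918 reads, is not on that list, which holds 1529 reads. The catalytic RNAs RPPH1 (RNase P) and RMRP (RNase MRP) had 1448 and 596 reads, and BCYRN1 47. HOX genes, which set position along the body axis, had 19 of 28 (67.9%) with 859 reads, led by HOXA3 with 252 and HOXB3 with 137. Among marker genes of other tissues, member stacks were found in HBA1 with 29 reads and COL1A1 with 9, which says nothing about the cell label because markers with no exonic stack are not counted.

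**Figure D5:**
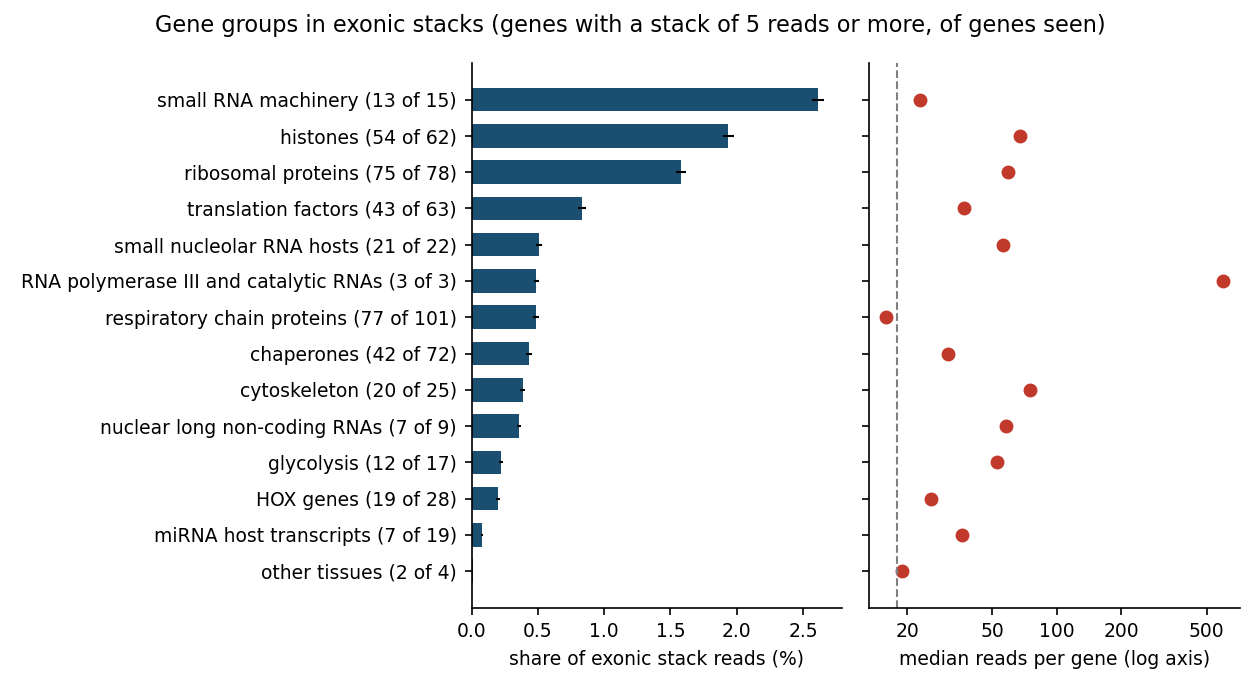
Share of exonic stack reads (%) of each gene list with its exact 95% interval (left) and the median reads per gene with a member stack on a log axis (right, the dashed line marking 18 over all such genes); brackets give genes with a member stack of genes with an exonic stack at any depth. Small RNA machinery holds the largest share, 2.61%, through AGO3 and AGO2, while its median of 23 reads per gene lies near the dashed line. Lists count every gene a stack names, while the dashed line gives each stack to its first gene only.

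Some members carry the name of a structured RNA although the rule left out the classes of tRNA, snoRNA and miRNA. Names of miRNA genes were carried by 14 stacks with 10880 reads, nearly all MIR720, and snoRNA or scaRNA names by 34 with 2534. Spliceosomal RNA names were carried by 9 stacks with 5647 reads, RNase P or MRP names by 4 with 2044, and nuclear copies of mitochondrial rRNA by 13 with 3123. Together these were 74 stacks with 5.67% of the reads. For some of these miRNA entries the precursor tables give AGO3 and AGO2 apart, but those counts are not the reads of the member stacks. The MIR720 stack has 10766 reads and the single MIR548N stack 6, so the ratios do not divide the stacks between the libraries. The mir-720 entry had 824 counts in AGO3 and 816 in AGO2, a log2 ratio of shares of 0.20 (interval 0.06 to 0.35). The mir-5095 entry had 398 counts in AGO3 and 253 in AGO2 (0.84, 0.61 to 1.08), mir-548n had 79 in AGO3 and 193 in AGO2 (−1.10, −1.50 to −0.71), and mir-548ac had 40 in AGO3 and 124 in AGO2 (−1.44, −1.99 to −0.92). With 1 library for each protein these ratios have no replicate check.

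Set beside stacks of other locations under the same minimum and limit, exonic stacks were the most numerous and the widest. There were 15943 exonic, 8835 intronic, 4152 antisense and 4505 intergenic stacks, while the reads were 427287, 624516, 253914 and 488272, so that introns and intergenic sites held more reads in fewer stacks. These totals depend in part on single stacks. The deepest held 31776 reads in exonic, 107212 in intronic, 56513 in antisense and 85844 in intergenic stacks. The median width was 37 bases in exonic stacks (interval 37 to 38), 24 in intronic, 25 in antisense and 25 in intergenic ones. Stacks of at most 30 bases made up 36.3% of exonic stacks, 81.6% of intronic, 69.1% of antisense and 67.1% of intergenic ones. Edits numbered 12.8 per 100 reads in exonic, 14.1 in intronic, 16.4 in antisense and 29.1 in intergenic stacks, whereas the medians per stack were 0.125, 0.111, 0.12 and 0.125. Stacks are not replicates, so these values stand side by side without a test. Stacks at 3′ splice sites, with a median width of 26 bases, were closer in width to the intronic stacks than to the other exonic classes.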

How the data were processed

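Small RNA was sequenced from FLAG immunoprecipitates of AGO3 and AGO2, 1 library each. The deposited stack list gives, per the file headers and fields, a count of reads, a count of edits, a width, a strand and annotations for each stack, and an entropy score that was not used. The authors' precursor tables give raw counts per miRNA precursor and library. Per the submitters' processing notes, which give no roles, Bowtie2 2.1.0 and build hg19 were used. The sources used here do not give the removal of the random adapter bases, the treatment of reads with several matches or the libraries pooled in the stack list. A field taken as the number of distinct reads is never above the reads of its stack; its meaning was inferred from its values. There were 0 columns of other samples.

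Stacks were selected by the rule in the report. Each was given to the first gene symbol it lists, assembled transcripts (TCONS) only where no other name stood, because the list does not tie each gene to the exon annotation; 1790 stacks (11.2%) carry several gene names, counting older symbols of the same gene and assembled transcripts. List counts include every gene a stack names, while values over all genes use the first gene only. Genes named were the 15 with most reads, the 5 with most stacks and up to 3 per list over 14 lists; deep stacks of each class, further small RNA pathway genes, and the genes with the most 3′ splice site stacks or the highest coding share were named after their values were seen. Members and lists were chosen with earlier results of these data known, and after seeing the matches, genes whose symbols only resemble a list's (such as EIF2C names among translation factors) were removed. Log2 ratios of AGO3 over AGO2 compare shares of 3055417 and 3485257 precursor counts. The selection code was tested on simulated data. Of the 8029 genes, 7365 matched RefSeq by symbol or synonym. With 1 pooled list no test was made. Alternatives changed the minimum of reads, the limit on edits, and the treatment of repeats, introns, the deepest stack, stacks with several genes and structured RNA names. Tables were handled with pandas 2.3.3 and numpy 2.4.6 in Python 3.11.15, intervals came from scipy 1.17.1 and plots from matplotlib 3.10.9.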

Additional observations from a re-analysis of the deposited data

How the results depend on the processing

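The depth minimum moved most values, by construction since it sets the members. With a minimum of 10 reads there were 8027 stacks, 376335 reads and 5141 genes, the 10 leading genes held 20.05% of the reads, and the median width and edits per read were 39 bases and 0.118. With a minimum of 50 these were 1168 stacks, 247374 reads, 997 genes, 30.1%, 47 bases and 0.115. With no minimum they were 146331 stacks, 610962 reads, 15976 genes, 12.5%, 23 bases and 0. A limit of 0.5 edits per read gave 423694 reads and 17.9% in the leading 10, and no limit gave 523094 reads and 27.9%. Keeping repeats gave 909856 reads and 54.9%. Leaving out stacks with an intron annotation gave 263788 reads and 15.1%, and removed every 3′ splice site stack; it left 0 reads for AC013489.1, GRIN3B, TMEM121 and ZNF850, 331 for XIST, 2573 for AGO3 and 758 for AGO2, with 11656 stacks and 6634 genes in all. Without the deepest stack there were 395511 reads and 11.7%, and without stacks that name several genes the leading 10 held 11.5% and AC013489.1, AGO3, AGO2 and XIST had 0 reads, by construction for AGO3, AGO2 and XIST, whose older symbols or assembled transcripts count as further names. Without structured RNA names, an alternative chosen after seeing the data, there were 403059 reads and 15.9%, and MIR720, RNU12 and MTRNR2L1 had 0 reads. Under the other alternatives with a minimum of 5 reads, where these were computed, stacks numbered 15660 to 17046 and genes 7177 to 8418, and the median width stayed at 37 bases and the median of edits per read at 0.125. The genes of the lists with a member numbered 395, against 301 at 10 reads and 393 at 0.5 edits per read. Of 179 further values, none of which can be negative, 19 were labelled as moved and 160 were not. That label passes over sizeable changes. Stacks at 3′ splice sites fell from 1185 to 808 at a minimum of 10 reads and were not labelled as moved. The medians of edits in stacks of 50 or more reads cannot change with the minimums used here. No paired analysis was possible because there is 1 library per group and the results come from no test. Depth limits the shallow stacks most: at 5 reads, edits per read can take only a few values, and a stack under the minimum may still be real.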
